A study of Mus musculus with 8 samples.

Results

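The effect of diabetes on gene expression in Gr-1+ myeloid cells was compared between skin wounds and bone marrow, gene by gene. For each gene the diabetic minus nondiabetic difference was taken in wounds and in bone marrow, on the scale of log2(FPKM + 1), and the marrow difference was subtracted from the wound difference. A positive tissue difference therefore marks a gene that was relatively higher in diabetic wounds than in diabetic marrow, each set against the nondiabetic cells of its own tissue. All 8 libraries entered each comparison. Rows were taken if they carried a gene name, had an estimate of status OK in all 8 libraries and lay on a locus of at least 200 bp, and 13065 of the 15578 gene names in the table were tested once low genes were left out.

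The cells were Gr-1+ cells of C57BL/6 mice aged 8 to 16 weeks, sex-matched and of both sexes, which were all wounded and housed alone. Nondiabetic mice were heterozygous for the leptin receptor gene (Lepr +/-), so the controls also carried 1 altered allele, and diabetic mice were homozygous (Lepr -/-). Each mouse received 2 excisional wounds of 8 mm diameter on the back. On day 3 the wounds were taken with a 2 mm rim of the skin around them and digested with enzymes, and Gr-1+ cells of wounds and bone marrow were collected on magnetic beads. The 10 mice of each genotype were split into 2 pools of 5, and each of the 4 groups (marrow or wound, nondiabetic or diabetic) holds 2 pools. The 10 mice of a genotype gave both its marrow and its wound pools, and the libraries were treated as unpaired. Where levels are printed, both pool values are given in the order pool 1, pool 2, in place of a mean and SD. The spread is that between pools, and the labels do not tie a marrow pool to a wound pool of the same number.

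Leptin is a hormone of fat cells that restrains feeding, and mice without a working leptin receptor become obese and diabetic and heal wounds slowly. Gr-1 is a surface antigen shared by Ly6G, which marks neutrophils, and Ly6C, which is high on inflammatory monocytes. These cells are made in the marrow, enter a wound within hours, and change their gene expression as they leave the circulation, so a diabetes effect may be set in the marrow, in the wound, or in both. An effect that differs between tissues is the subject of a comparison of differences, which statistics calls an interaction.

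The deposited values were FPKM without read counts, so the depth of the libraries is unknown. In bulk samples such as these, fewer cells of a type and less RNA per cell cannot be told apart. Lepr was at 0.477 and 0.689 FPKM in nondiabetic marrow, 0.03897 and 0.186 in diabetic marrow, 4.95 and 4.66 in nondiabetic wounds and 1.37 and 1.22 in diabetic wounds, lower in the diabetic pools of both tissues. The labelled cell type was checked by Ly6g and the joint locus of Ly6c1, Ly6c2, Ly6a and the gene model Gm10238, which overlap on 1 stretch of chr15 and may share reads. The level of this joint locus is therefore not that of Ly6C alone. Ly6g stood at 808 and 899.5 FPKM in nondiabetic marrow, 566 and 569 in diabetic marrow, 17.2 and 19.2 in nondiabetic wounds and 12.2 and 12.9 in diabetic wounds. It fell in the diabetic pools of both tissues, and its tissue difference of 0.087 did not pass the test (adjusted p = 0.489), with -0.17 after median-ratio scaling. The joint locus was at 2869.5 and 2978 FPKM in nondiabetic marrow, 1732 and 1696 in diabetic marrow, 142 and 143 in nondiabetic wounds and 158 and 158 in diabetic wounds, and its tissue difference was 0.92 ± 0.064 (SE, adjusted p = 1.77e-04). Ly6g and the joint locus were thus present in every library and far lower in the wound libraries than in marrow. The share of Ly6C in the joint locus is unknown.

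Markers of cells that a Gr-1 selection should leave behind also differed between the groups. The summed level of 20 keratinocyte markers was 12.2 to 12.4 FPKM in nondiabetic marrow, 10.97 to 12.2 in diabetic marrow, 333 to 344 in nondiabetic wounds and 769 to 791 in diabetic wounds. For 19 endothelial markers the sums were 38.7 to 40.9 FPKM in nondiabetic marrow, 33.2 to 36.2 in diabetic marrow, 91.2 to 92.2 in nondiabetic wounds and 178.63 to 178.66 in diabetic wounds. The 14 erythroid and megakaryocyte markers summed to 6363 to 6398 FPKM in nondiabetic marrow, 14145 to 15186 in diabetic marrow, 72.9 to 75.6 in nondiabetic wounds and 306 to 310.3 in diabetic wounds. These sums rest on the beta-globin gene Hbb-b1 in marrow, which may share reads with a near-identical copy, at 6183 to 6216 FPKM in nondiabetic and 13958 to 14992 in diabetic pools, and on the platelet chemokine Ppbp in wounds. Without these genes the other 12 summed to 175 to 177 FPKM in nondiabetic marrow, 187 to 195 in diabetic marrow, 18.1 to 19.1 in nondiabetic wounds and 18.96 to 19.7 in diabetic wounds. Of the 14, 4 rose and 6 fell in diabetic marrow, and 3 rose and 1 fell in diabetic wounds. The 21 fibroblast markers summed to 672 to 678 FPKM in nondiabetic and 513 to 530.0 in diabetic wounds, where 10 fell and 2 rose. Over all genes tested, 32.0% rose and 21.7% fell in diabetic wounds, and 13.7% rose and 32.8% fell in diabetic marrow. Each member of these lists was above 0 in at least 1 library. The part of such cells in the results that follow was not tested.

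The tissue difference passed the test in 7641 of 13065 genes (limma with Benjamini-Hochberg adjustment, adjusted p under 0.05), which is 58.5% of those tested. It was higher, meaning relatively up in diabetic wounds, in 5103 genes (39.1%) and lower in 2538 (19.4%). The median size of a called difference was 0.58 on the log2 scale, and 1245 genes (9.53%) reached at least 1, of which 646 were higher (4.94% of the genes tested) and 599 lower (4.58%). The last gene inside the threshold was Ccdc72 at 0.58 (adjusted p = 0.04998) and the first outside it was Grk5 at 0.21 (adjusted p = 0.0501). The split into higher and lower rested on the scaling of the libraries. As deposited, the median tissue difference of all genes was 0.19, and with median-ratio scaling the split became 3341 higher and 3810 lower. List medians are therefore read against 0.19 in what follows, and the value after median-ratio scaling, under which the median of all genes is within 0.01 of 0, is given beside them.

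**Figure D1:**
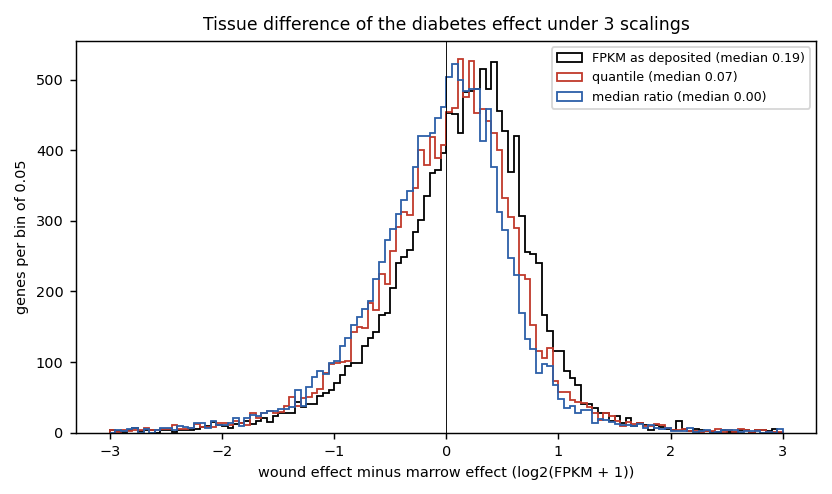
Distribution over the 13065 tested genes of the tissue difference (horizontal axis, log2, bins of 0.05; vertical axis, number of genes), with the values as deposited, after quantile normalization and after median-ratio scaling. The bulk of the genes sits above 0 with the deposited values, at a median of 0.19, and moves to 0.07 and to about 0 under the other scalings.

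Genes with a called difference fell into classes by what they did in each tissue. The diabetes effect alone passed the test in 7016 genes in wound (53.7%; 4186 up, 2830 down) and in 6074 in marrow (46.5%; 1789 up, 4285 down). The effect is said to have turned where it was called in each tissue with opposite signs. In this way 1665 genes were up in diabetic wounds and down in diabetic marrow (12.7% of the genes tested) and 548 were down in wounds and up in marrow (4.19%). A further 2636 genes were called in wound and not in marrow and 1842 in marrow and not in wound. In 224 genes levels rose in both tissues and in 440 they fell in both, by unequal amounts, and 286 genes were called for the difference and in neither tissue alone. Of the 1665 genes that turned upward in wounds, 753 did so after median-ratio scaling as well, against 547 of the 548 that turned downward. A turn of at least 1 on the log2 scale in each tissue was rare, with 9 genes up in wounds and 15 down, and each of them was also called as turned under quantile normalization and under median-ratio scaling.

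**Figure D2:**
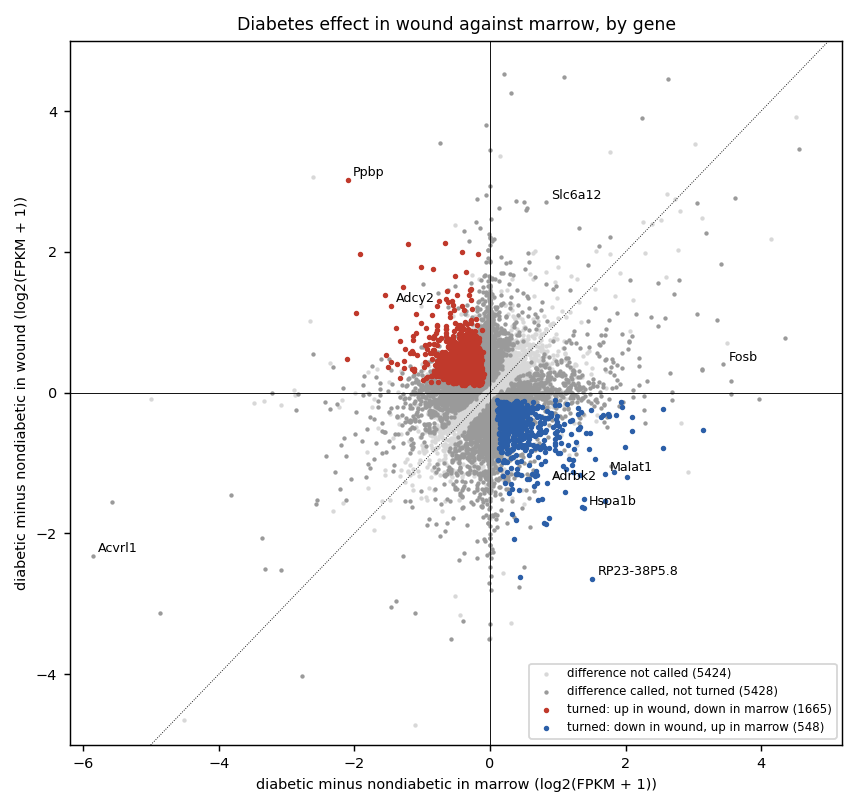
Diabetes effect in marrow (horizontal axis, log2 difference, diabetic minus nondiabetic) against that in wounds (vertical axis, same unit), 1 point for each of the 13065 tested genes but 9 that lie outside the axes. Genes that turned fill the upper left quadrant (up in wounds, down in marrow, 1665 genes) and the lower right quadrant (548 genes), and labelled points are named in the text.

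Among named genes present in both tissues, the strongest turn towards diabetic wounds was that of Ppbp, the platelet chemokine CXCL7 that draws neutrophils (chr5:91197443-91199177 in the authors' table, mm9, over its exons). It was at 5.36 and 4.65 FPKM in nondiabetic marrow, 0.453 and 0.345 in diabetic marrow, 29.1 and 28.4 in nondiabetic wounds and 244 and 237 in diabetic wounds. Diabetic marrow thus held a small part of the nondiabetic level, while diabetic wounds were several times above nondiabetic wounds, with no overlap in either tissue. Its diabetes effect of 3.02 in wound stood against -2.10 in marrow, and the tissue difference was 5.12 ± 0.10 (SE, adjusted p = 1.49e-05). Pf4, the neighbouring platelet chemokine gene (chr5:91200579-91203248), which was listed among macrophage markers, ran the same way. It stood at 4.696 and 4.597 FPKM in nondiabetic marrow, 0.532 and 0.454 in diabetic marrow, 65.4 and 73.9 in nondiabetic wounds and 280.4 and 272 in diabetic wounds. Its tissue difference was 3.89 ± 0.089 (SE, adjusted p = 2.07e-05). Megakaryocytes and platelets make both chemokines. The megakaryocyte markers Itga2b, Gp9 and Treml1, listed with Ppbp, had wound effects that did not pass, and they fell in diabetic marrow.

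Enzymes of lipid and energy metabolism were also among the genes that turned upward in wounds. Idh1, the cytosolic isocitrate dehydrogenase that supplies NADPH (chr1:65205194-65225689), was at 63.1 and 67.1 FPKM in nondiabetic marrow, 35.6 and 35.8 in diabetic marrow, 10.2 and 10.7 in nondiabetic wounds and 23.7 and 23.3 in diabetic wounds. The 2 pools of each group lay close together, and the diabetic pools were below the nondiabetic ones in marrow and above them in wounds. Its tissue difference was 1.95 ± 0.059 (SE, adjusted p = 2.21e-05). Fdps, farnesyl diphosphate synthase of the cholesterol pathway (chr3:88903020-88903420, a 400 bp stretch over an exon), was at 30.4 and 31.9 FPKM in nondiabetic marrow, 14.6 and 13.6 in diabetic marrow, 3.52 and 5.505 in nondiabetic wounds and 8.27 and 9.195 in diabetic wounds, a difference of 1.93 ± 0.23 (SE, adjusted p = 0.00102). Tcfec, a transcription factor of the MiT family that macrophages express (chr6:16783390-16848502), was at 8.93 and 10.4 FPKM in nondiabetic marrow, 4.53 and 3.55 in diabetic marrow, 11.6 and 14.9 in nondiabetic wounds and 28.99 and 30.2 in diabetic wounds. Groups did not overlap in either tissue, and the difference was 2.20 ± 0.20 (SE, adjusted p = 4.12e-04). Pdlim1, an actin-associated PDZ and LIM protein (chr19:40318713-40324266), was at 21.4 and 24.9 FPKM in nondiabetic marrow, 7.43 and 8.995 in diabetic marrow, 46.5 and 48.8 in nondiabetic wounds and 90.8 and 91.9 in diabetic wounds, with a tissue difference of 2.32 ± 0.14 (SE, adjusted p = 1.17e-04). Plscr3, a phospholipid scramblase of mitochondria, had effects of 0.92 in wound and -0.94 in marrow and a difference of 1.87 (adjusted p = 5.56e-05).

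The last members of this class were less secure. Lsm5, a protein of the U6 spliceosomal ring, was at 47.6 and 49.6 FPKM in nondiabetic marrow, 23.03 and 28.5 in diabetic marrow, 24.4 and 13.8 in nondiabetic wounds and 37.7 and 28.2 in diabetic wounds. The diabetic pools were lower than the nondiabetic ones in marrow and higher in wounds. The difference of 1.69 (adjusted p = 0.011) passed, but the turn was lost after median-ratio scaling because neither tissue's own effect passed (adjusted p = 0.082 in wound and 0.0808 in marrow). The row named Adcy2 was a stretch of 253 bp within the gene body that covers no annotated exon, so its difference of 2.70 (adjusted p = 0.00125) is that of the stretch and not of the messenger RNA.

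**Figure D3:**
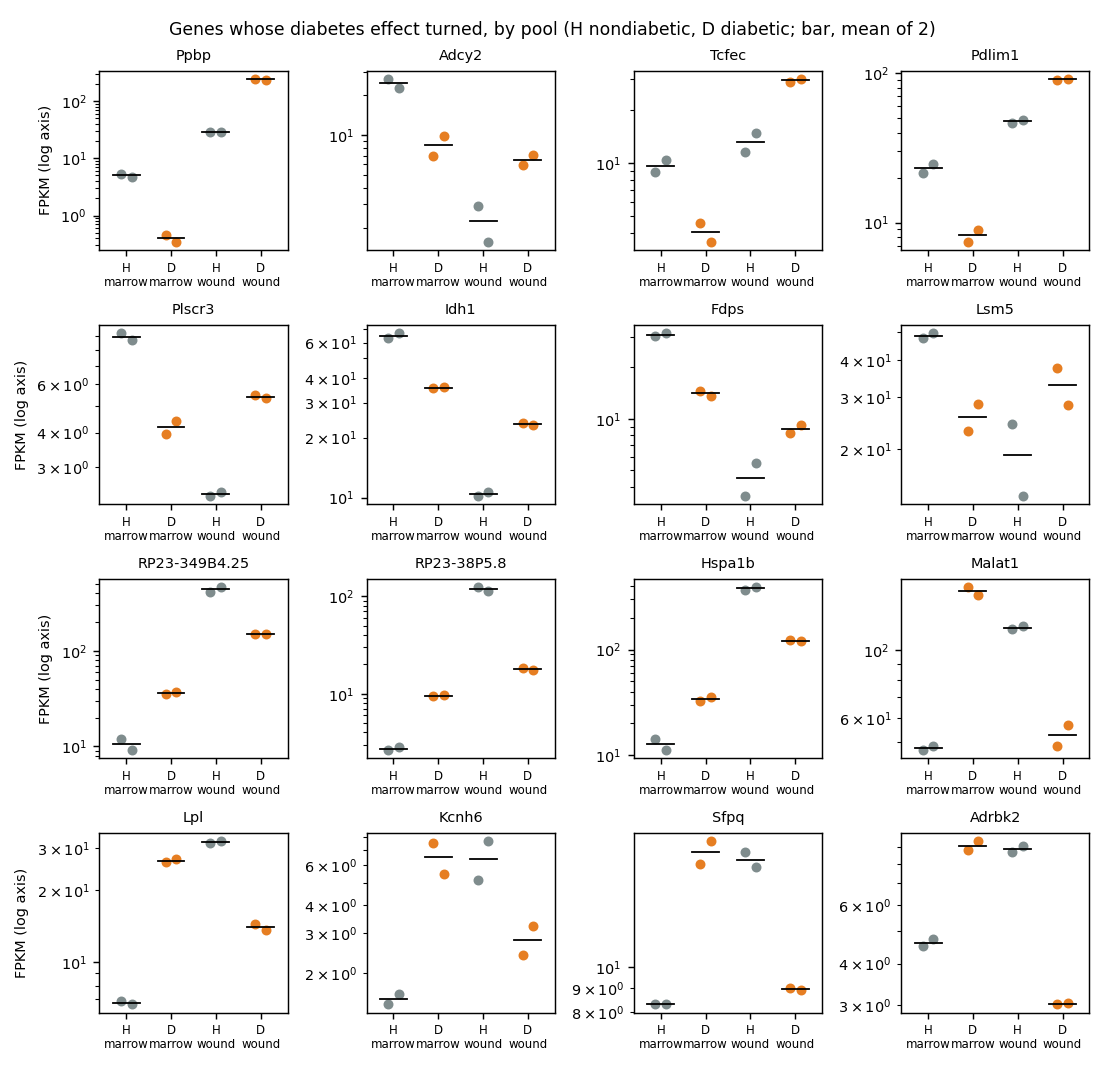
FPKM of the 16 named genes with the largest turns (one panel each, FPKM on a log axis), with 1 point per pool and a bar at the mean of the 2 pools for nondiabetic (H) and diabetic (D) marrow and wounds. The upper panels, from Ppbp to Lsm5, fall in diabetic marrow and rise in diabetic wounds, and the lower panels, from the Hspa1a locus to Adrbk2, do the reverse.

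In the opposite direction, down in diabetic wounds and up in diabetic marrow, inducible heat shock genes stood out. Hspa1b encodes the stress-induced chaperone HSP70 and sits on chr17 beside its near-identical copy Hspa1a. Reads of the 2 copies may have been split between them by the authors' counting, so each single value is uncertain. Hspa1b (chr17:35093281-35096171) was at 14.1 and 11.1 FPKM in nondiabetic marrow, 32.9 and 35.6 in diabetic marrow, 371 and 392.2 in nondiabetic wounds and 122 and 121 in diabetic wounds, and the locus over the exons of Hspa1a, which the table names RP23-349B4.25 (chr17:35106077-35109100), was at 12.1 and 9.13 FPKM in nondiabetic marrow, 35.4 and 36.9 in diabetic marrow, 416 and 465 in nondiabetic wounds and 151 and 148 in diabetic wounds. Both copies were lowest in nondiabetic marrow and highest in nondiabetic wounds, with the diabetic pools in between in both tissues. The tissue differences were -3.02 ± 0.15 (SE, adjusted p = 6.43e-05) and -3.24 ± 0.17 (SE, adjusted p = 7.97e-05). The promoter of Hspa1b is shown because heat shock genes are known for inverted heat shock elements. It is the RefSeq window from 250 bases before to 50 after the start (chr17:34959189-34959488, minus strand, GRCm38.p6, a later build than that of the expression table), printed 5′ to 3′, with capitals for the match to GAANNTTC.
Hspa1b: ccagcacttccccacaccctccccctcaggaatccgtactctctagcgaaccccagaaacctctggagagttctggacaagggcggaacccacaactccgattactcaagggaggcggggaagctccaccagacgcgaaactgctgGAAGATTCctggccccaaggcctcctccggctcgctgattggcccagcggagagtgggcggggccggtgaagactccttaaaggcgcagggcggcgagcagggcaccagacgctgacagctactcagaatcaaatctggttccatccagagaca
This window held 1 match, searched on both strands. The motif was in 7.95% of 27025 promoter windows of the same length and in 8 of the 13 windows found for the heat shock list.

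Malat1, a long nuclear RNA, was at 46.9 and 48.4 FPKM in nondiabetic marrow, 161 and 152 in diabetic marrow, 117 and 120.5 in nondiabetic wounds and 48.5 and 57.00 in diabetic wounds (chr19:5790188-5802742). Nondiabetic wounds were above nondiabetic marrow, and in diabetic mice that order was the reverse, with no overlap of pools. Its tissue difference was -2.85 ± 0.11 (SE, adjusted p = 3.74e-05). Lpl, lipoprotein lipase, which frees fatty acids from circulating triglyceride (chr8:71429519-71430832), was at 6.86 and 6.67 FPKM in nondiabetic marrow, 26.2 and 26.97 in diabetic marrow, 31.5 and 32.1 in nondiabetic wounds and 14.5 and 13.6 in diabetic wounds. Diabetic marrow came near the level of nondiabetic wounds, while diabetic wounds lay below them, a difference of -2.95 ± 0.057 (SE, adjusted p = 1.49e-05). Sfpq, a splicing factor of the nuclear bodies that form on another long RNA, was at 8.32 and 8.300 FPKM in nondiabetic marrow, 16.7 and 18.7 in diabetic marrow, 17.7 and 16.4 in nondiabetic wounds and 8.99 and 8.93 in diabetic wounds. It had effects of -0.86 in wound and 1.003 in marrow, with a difference of -1.86 ± 0.087 (SE, adjusted p = 5.94e-05).

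Adrbk2, the receptor kinase GRK3 that switches off activated G protein-coupled receptors, was at 4.51 and 4.75 FPKM in nondiabetic marrow, 8.77 and 9.34 in diabetic marrow, 8.67 and 9.02 in nondiabetic wounds and 3.015 and 3.04 in diabetic wounds, a difference of -2.13 ± 0.07 (SE, adjusted p = 2.50e-05). Of its 3 loci in the table, 2 showed this sign. RP23-38P5.8, a 524 bp row on chr17 whose name is not in the annotation used here, was at 2.63 and 2.805 FPKM in nondiabetic marrow, 9.39 and 9.72 in diabetic marrow, 125 and 112 in nondiabetic wounds and 18.5 and 17.6 in diabetic wounds. Nondiabetic wounds stood far above all other pools for this row, and the difference was -4.15 ± 0.085 (SE, adjusted p = 1.49e-05). The row named Kcnh6 (243 bp, no exon) had a difference of -2.49 (adjusted p = 9.75e-04) on a stretch that cannot be ascribed to the channel's messenger RNA.

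Genes called in wound and not in marrow came next. Among those relatively higher in diabetic wounds, Tmem8 was at 33.2 and 32.7 FPKM in nondiabetic marrow, 29.7 and 31.3 in diabetic marrow, 5.84 and 5.78 in nondiabetic wounds and 18.2 and 18.3 in diabetic wounds. Marrow pools were nearly level, and diabetic wounds stood well above nondiabetic wounds. The wound effect was 1.497 and the tissue difference was 1.60 ± 0.05 (SE, adjusted p = 2.25e-05). Klhl6, an adaptor of a ubiquitin ligase known from B cells, was at 65.1 and 67.3 FPKM in nondiabetic marrow, 60.8 and 62.8 in diabetic marrow, 4.54 and 4.92 in nondiabetic wounds and 14.7 and 14.3 in diabetic wounds, a difference of 1.53 ± 0.063 (SE, adjusted p = 4.36e-05). Ldhb, a subunit of lactate dehydrogenase, had the largest value among the named genes of this class at 4.27 ± 0.52 (SE, adjusted p = 0.00109). Its pools were at 108 and 229.9 FPKM in nondiabetic marrow, 98.2 and 90.7 in diabetic marrow, 3.87 and 4.72 in nondiabetic wounds and 48.9 and 74.5 in diabetic wounds, so the 2 nondiabetic marrow pools were far apart while diabetic wounds stood above nondiabetic ones.

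Gtpbp10 and Clcn2 were the weakest of this class. Gtpbp10, a GTPase of the mitochondrial ribosome, was at 43.5 and 105 FPKM in nondiabetic marrow, 116 and 47.7 in diabetic marrow, 29.4 and 34.3 in nondiabetic wounds and 136 and 294 in diabetic wounds, and its difference of 2.48 ± 0.87 (SE, adjusted p = 0.0498) lost the call in 16 of 24 alternative settings. Leaving out pool 2 of nondiabetic marrow gave 1.85 (adjusted p = 0.128). Clcn2, a chloride channel, had a tissue difference of 1.67 ± 0.45 (SE, adjusted p = 0.0213) and was no longer called when diabetic marrow pool 2, either nondiabetic wound pool or diabetic wound pool 1 was left out, with values of 1.37 to 1.68.

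On the lower side, Rab27a, a small GTPase that brings secretory granules to the membrane, was at 404 and 412 FPKM in nondiabetic marrow, 408 and 436 in diabetic marrow, 34.4 and 22.1 in nondiabetic wounds and 6.73 and 8.42 in diabetic wounds. Its marrow level was alike in all 4 pools, and diabetic wounds were below nondiabetic ones. The wound effect was -1.75 and the difference was -1.79 ± 0.28 (SE, adjusted p = 0.00285). Itpr2, a calcium release channel of the endoplasmic reticulum, was at 9.89 and 5.51 FPKM in nondiabetic marrow, 9.73 and 8.44 in diabetic marrow, 13.6 and 14.2 in nondiabetic wounds and 3.62 and 2.73 in diabetic wounds and Col7a1, the collagen of anchoring fibrils in skin, at 3.68 and 3.701 FPKM in nondiabetic marrow, 7.03 and 4.33 in diabetic marrow, 22.2 and 29.1 in nondiabetic wounds and 7.54 and 7.41 in diabetic wounds. Their differences were -2.10 (adjusted p = 0.00314) and -2.12 (adjusted p = 0.00165). Pram1, an adaptor protein of granulocytes, was at 10.4 and 4.04 FPKM in nondiabetic marrow, 8.79 and 10.8 in diabetic marrow, 7.78 and 4.14 in nondiabetic wounds and 0 and 0.458 in diabetic wounds, that is at or near 0 in diabetic wounds, with a tissue difference of -2.98 ± 0.63 (SE, adjusted p = 0.00855).

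Genes called in marrow and not in wound included several with steep changes of level. Chi3l3, the secreted chitinase-like protein Ym1 made by maturing neutrophils and by alternatively activated macrophages, shares a locus with Chi3l7. This locus was at 3657 and 3879 FPKM in nondiabetic marrow, 1011 and 1035 in diabetic marrow, 51.9 and 53.9 in nondiabetic wounds and 57.3 and 57.2 in diabetic wounds. Diabetic marrow was far below nondiabetic marrow, while the wound pools differed little (wound effect 0.11, adjusted p = 0.0867). The tissue difference was 1.99 ± 0.066 (SE, adjusted p = 2.50e-05). Ass1, argininosuccinate synthase, which rebuilds arginine from citrulline, was at 93.6 and 108 FPKM in nondiabetic marrow, 25.4 and 24.2 in diabetic marrow, 153 and 238 in nondiabetic wounds and 164 and 151 in diabetic wounds, with a tissue difference of 1.70 ± 0.28 (SE, adjusted p = 0.00335). Phgdh, the first enzyme of serine synthesis, was at 296 and 218 FPKM in nondiabetic marrow, 86.96 and 78.4 in diabetic marrow, 49.6 and 113 in nondiabetic wounds and 103 and 106 in diabetic wounds, and its difference of 2.08 ± 0.52 (SE, adjusted p = 0.016) had an adjusted p of 0.0511 without nondiabetic marrow pool 1. Ptpla, an enzyme of very long chain fatty acid synthesis, had a tissue difference of 1.97 (adjusted p = 0.00178). The interferon-induced guanylate-binding locus Gbp3 and Gbp7 was at 12.5 and 13.2 FPKM in nondiabetic marrow, 3.64 and 3.196 in diabetic marrow, 23.9 and 24.1 in nondiabetic wounds and 21.9 and 22.4 in diabetic wounds, a difference of 1.53 ± 0.08 (SE, adjusted p = 7.64e-05). After median-ratio scaling the wound effect of this locus also passed (adjusted p = 0.0244), so its class depends on the scaling.

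Among genes called as up in marrow and not called in wound, Egr1, an immediate early zinc finger factor on chr18, was at 11.6 and 11.6 FPKM in nondiabetic marrow, 59.6 and 60.3 in diabetic marrow, 402 and 402 in nondiabetic wounds and 388 and 387 in diabetic wounds. Both diabetic marrow pools were above both nondiabetic ones, and all wound pools lay within a narrow band far above both. The marrow effect was 2.27 and the tissue difference was -2.33 ± 0.039 (SE, adjusted p = 1.49e-05). After median-ratio scaling the small fall in wounds passed as well (adjusted p = 0.00479). Klra17, a lectin-like receptor of the Ly49 family whose locus overlaps Klra5, was at 69.6 and 74.3 FPKM in nondiabetic marrow, 232 and 233 in diabetic marrow, 12.01 and 13.7 in nondiabetic wounds and 11.6 and 10.9 in diabetic wounds, with a tissue difference of -1.86 ± 0.10 (SE, adjusted p = 7.64e-05). Ubn2, a histone chaperone subunit, had a tissue difference of -2.07 (adjusted p = 0.0103), and its diabetic wound pools were at 16.7 and 36.2 FPKM. The rows named Myl6 and Fau were short stretches without an annotated exon of those genes, with differences of -1.65 and -1.61.

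Some genes moved the same way in both tissues but by unequal amounts. Acvrl1, the activin receptor-like kinase ALK1 that binds BMP9, was at 211 and 217 FPKM in nondiabetic marrow, 3.17 and 2.29 in diabetic marrow, 26.8 and 32.4 in nondiabetic wounds and 5.78 and 4.48 in diabetic wounds. It fell in the diabetic pools of both tissues, with effects of -2.32 in wound and -5.86 in marrow, and the difference was 3.54 ± 0.22 (SE, adjusted p = 1.27e-04). Slc22a4, an ergothioneine and carnitine transporter, was at 11.4 and 12.2 FPKM in nondiabetic marrow, 17.8 and 17.5 in diabetic marrow, 8.63 and 9.18 in nondiabetic wounds and 58.5 and 58.6 in diabetic wounds. It rose in both tissues and more in wound, with a tissue difference of 2.05 ± 0.063 (SE, adjusted p = 2.21e-05). Slc6a12, a betaine transporter, was at 3.88 and 4.18 FPKM in nondiabetic marrow, 8.04 and 7.75 in diabetic marrow, 5.44 and 5.39 in nondiabetic wounds and 40.9 and 40.8 in diabetic wounds, with a tissue difference of 1.88 ± 0.061 (SE, adjusted p = 2.50e-05).

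Genes that rose in both tissues and more in marrow included Fosb, a subunit of the AP-1 factor, at 4.12 and 3.74 FPKM in nondiabetic marrow, 52.01 and 53.1 in diabetic marrow, 64.8 and 64.9 in nondiabetic wounds and 86.7 and 85.7 in diabetic wounds. It had effects of 0.40 in wound and 3.44 in marrow, with a difference of -3.04 ± 0.06 (SE, adjusted p = 1.49e-05). The joint locus of the MHC class I genes H2-Gs10 and H2-Q7 was at 229 and 236 FPKM in nondiabetic marrow, 2403 and 2376 in diabetic marrow, 707 and 794 in nondiabetic wounds and 1521 and 1558 in diabetic wounds, with a tissue difference of -2.32 ± 0.10 (SE, adjusted p = 4.84e-05). This locus spans other class I genes and pseudogenes, so reads may be shared among near-identical copies. The row RP23-71I22.5 (293 bp, no exon) had a tissue difference of -3.58 (adjusted p = 8.38e-05).

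Where a gene was near 0 in one tissue (mean under 1 FPKM in both groups) and at 10 FPKM or more in a group of the other, the tissue difference is that of the tissue with signal, and log2(FPKM + 1) compresses the low side. Mcpt2, a mast cell protease, was at 0 and 0.372 FPKM in nondiabetic marrow, 1.11 and 0 in diabetic marrow, 15.3 and 17.02 in nondiabetic wounds and 317 and 334 in diabetic wounds, with a difference of 3.94 ± 0.49 (SE, adjusted p = 0.00113). The call on Mcpt2 was lost with a pseudocount of 0.1 (adjusted p = 0.125), and its locus spans other proteases of the family, whose reads may be mixed. Cldn5, a tight junction protein of endothelium, was at 0.395 and 0.357 FPKM in nondiabetic marrow, 0.0579 and 0.00979 in diabetic marrow, 3.68 and 4.02 in nondiabetic wounds and 17.9 and 19.04 in diabetic wounds. The row named Cma2 (289 bp, no exon) had a tissue difference of 3.44 and lies beside the same protease cluster. In the other direction Dmbt1, a secreted scavenger glycoprotein of epithelia, was at 10.03 and 11.00 FPKM in nondiabetic wounds, and at 0.00505 and 0.0247 in diabetic wounds. Ccr7, the receptor that guides dendritic cells to lymph nodes, was at 0.602 and 0.513 FPKM in nondiabetic marrow, 0.582 and 0.605 in diabetic marrow, 97.6 and 102 in nondiabetic wounds and 29.3 and 28.9 in diabetic wounds, with a tissue difference of -1.78 ± 0.063 (SE, adjusted p = 3.00e-05). Plagl1, a zinc finger factor, had a tissue difference of -1.63.

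In marrow, Rhd, the Rh blood group antigen of red cells, was at 11.2 and 11.4 FPKM in nondiabetic marrow, 3.54 and 3.15 in diabetic marrow, 0.119 and 0.264 in nondiabetic wounds and 0.219 and 0.195 in diabetic wounds. It was lower in diabetic than in nondiabetic marrow and near 0 in all wound pools, with a tissue difference of 1.52 (adjusted p = 2.05e-04). Nsun4, a methyltransferase of mitochondrial ribosomal RNA, was at 0.0529 and 1.13 FPKM in nondiabetic marrow, 20.6 and 24.5 in diabetic marrow, 0.00991 and 0.3099 in nondiabetic wounds and 0 and 0.177 in diabetic wounds, with a tissue difference of -4.05 (adjusted p = 9.15e-04). Spc24, a kinetochore protein, and Chi3l7 had tissue differences of 1.11 and 2.09. The call on Chi3l7 was lost with a pseudocount of 0.1, at 1.75 (adjusted p = 0.0952). The Fstl4 row, which covers no exon and lies on the other strand, had a tissue difference of -3.57.

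Gene groups were then read by how many of their tested members passed in each direction, beside 39.1% higher and 19.4% lower over all genes tested. After median-ratio scaling 3341 of 13065 were higher and 3810 lower, the background for counts under that scaling. In diabetic wounds 32.0% of all genes rose and 21.7% fell, and in diabetic marrow 13.7% rose and 32.8% fell. The effect turned upward in wounds in 12.7% and downward in 4.19% (753 and 1145 genes after median-ratio scaling). The lists were chosen with earlier results of these data known, so the counts describe the lists and do not test them. Genes of oxidative phosphorylation mostly rose in diabetic wounds and fell in diabetic marrow. Of 30 tested genes (33 listed), 24 rose in diabetic wounds, 27 fell in diabetic marrow, and 28 had a higher tissue difference. The median difference was 0.64, and 0.39 after median-ratio scaling. The effect turned in 22 members, and in 11 after median-ratio scaling. Uqcrb, a subunit of complex III, was at 33.2 and 31.6 FPKM in nondiabetic marrow, 20.4 and 20.3 in diabetic marrow, 21.6 and 19.2 in nondiabetic wounds and 28.3 and 29.2 in diabetic wounds. The diabetic pools were below the nondiabetic ones in marrow and above them in wounds, with a tissue difference of 1.12 ± 0.083 (SE, adjusted p = 2.09e-04). Ndufv1 of complex I and Atp5a1 of ATP synthase had differences of 0.71 and 0.64.

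Cholesterol synthesis moved further. Of 20 tested genes (24 listed), all 20 fell in diabetic marrow, 12 rose and 3 fell in diabetic wounds, and 19 had a higher tissue difference. The median difference was 1.15, and 0.92 after median-ratio scaling, under which 17 were called higher. Cyp51, lanosterol demethylase, was at 6.79 and 6.96 FPKM in nondiabetic marrow, 1.79 and 1.62 in diabetic marrow, 3.02 and 3.21 in nondiabetic wounds and 5.05 and 4.903 in diabetic wounds, with a tissue difference of 2.08 ± 0.077 (SE, adjusted p = 3.33e-05). Sc4mol, a sterol oxidase of the same route, had effects of 0.69 in wound and -0.83 in marrow. The sterol regulatory element TCACNCCAC was in 1 of 17 promoter windows found for the list and in 1.22% of all windows. That 1 window belongs to Hmgcs1, which was listed but not among the tested genes, so no tested member had a match.

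Fatty acid genes were mixed. Of 22 tested genes (26 listed), 11 were higher and 5 lower (8 and 7 after median-ratio scaling), at a median of 0.22 (0.025 after median-ratio scaling). Besides Lpl, Abca1, the cholesterol exporter, was at 1.03 and 0.883 FPKM in nondiabetic marrow, 2.85 and 2.75 in diabetic marrow, 140.2 and 139.6 in nondiabetic wounds and 133 and 131 in diabetic wounds. It rose in diabetic marrow and its wound effect did not pass, with a tissue difference of -1.04 ± 0.061 (SE, adjusted p = 1.09e-04). Fabp5, a fatty acid carrier, was at 47.4 and 51.6 FPKM in nondiabetic marrow, 25.4 and 25.8 in diabetic marrow, 194 and 214 in nondiabetic wounds and 314 and 316 in diabetic wounds, and went the other way with a tissue difference of 1.55 ± 0.086 (SE, adjusted p = 9.14e-05). In the list of glycolysis and hypoxia, 13 of 30 were higher and 5 lower (13 and 10 after median-ratio scaling), with Egln1, an oxygen sensor of the HIF pathway, at 1.13 and Tpi1, triosephosphate isomerase, at 0.94.

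Cell cycle genes fell in diabetic marrow. Of 33 tested genes (34 listed), 31 fell in diabetic marrow, and 30 had a higher and 1 a lower tissue difference. In diabetic wounds 12 rose (9 after median-ratio scaling), a share near the 32.0% of all genes tested. The median was 0.73, and 0.51 after median-ratio scaling, with 22 called higher. Mki67, a marker of dividing cells, was at 36.9 and 41.02 FPKM in nondiabetic marrow, 32.03 and 32.5 in diabetic marrow, 19.1 and 18.9 in nondiabetic wounds and 31.9 and 32.00 in diabetic wounds, lowest in nondiabetic wounds and highest in nondiabetic marrow, with a tissue difference of 0.98 ± 0.072 (SE, adjusted p = 2.04e-04). Cdk1, the mitotic kinase, was at 16.8 and 16.5 FPKM in nondiabetic marrow, 9.87 and 9.61 in diabetic marrow, 1.93 and 2.03 in nondiabetic wounds and 2.26 and 2.15 in diabetic wounds, with a tissue difference of 0.82 ± 0.062 (SE, adjusted p = 2.16e-04). The fall of Cdk1 was in marrow (effect -0.72), while its wound effect of 0.11 did not pass (adjusted p = 0.0876).

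Ribosomal protein and lysosomal genes leaned the same way. Higher tissue differences were called for 23 of 35 ribosomal protein genes (median 0.49, 0.28 after median-ratio scaling) and for 22 of 29 lysosomal genes (median 0.49, 0.25 after median-ratio scaling). Ribosomal protein genes have many near-identical pseudogenes, so their values are uncertain. The effect turned in 14 lysosomal genes, and in 8 after median-ratio scaling. Grn, progranulin, was at 117 and 115 FPKM in nondiabetic marrow, 78.9 and 83.6 in diabetic marrow, 68.2 and 71.8 in nondiabetic wounds and 118 and 112 in diabetic wounds, with a tissue difference of 1.22 ± 0.067 (SE, adjusted p = 8.63e-05). Ctsl, cathepsin L, was an exception that rose in both tissues and more in marrow, at 14.5 and 14.5 FPKM in nondiabetic marrow, 48.8 and 47.7 in diabetic marrow, 296 and 315 in nondiabetic wounds and 510.4 and 500.3 in diabetic wounds. For endoplasmic reticulum stress, 11 of 18 were higher and 3 lower (median 0.55), which became 10 and 7 (median 0.36) after median-ratio scaling. The folding enzymes Pdia3 and Pdia4 had tissue differences of 1.08 and 1.12, whereas Ppp1r15a, the stress-induced phosphatase subunit GADD34, had a tissue difference of -1.49 ± 0.042 (SE, adjusted p = 2.21e-05) and was at 5.06 and 4.88 FPKM in nondiabetic marrow, 15.7 and 15.5 in diabetic marrow, 346 and 345 in nondiabetic wounds and 339 and 343 in diabetic wounds.

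**Figure D4:**
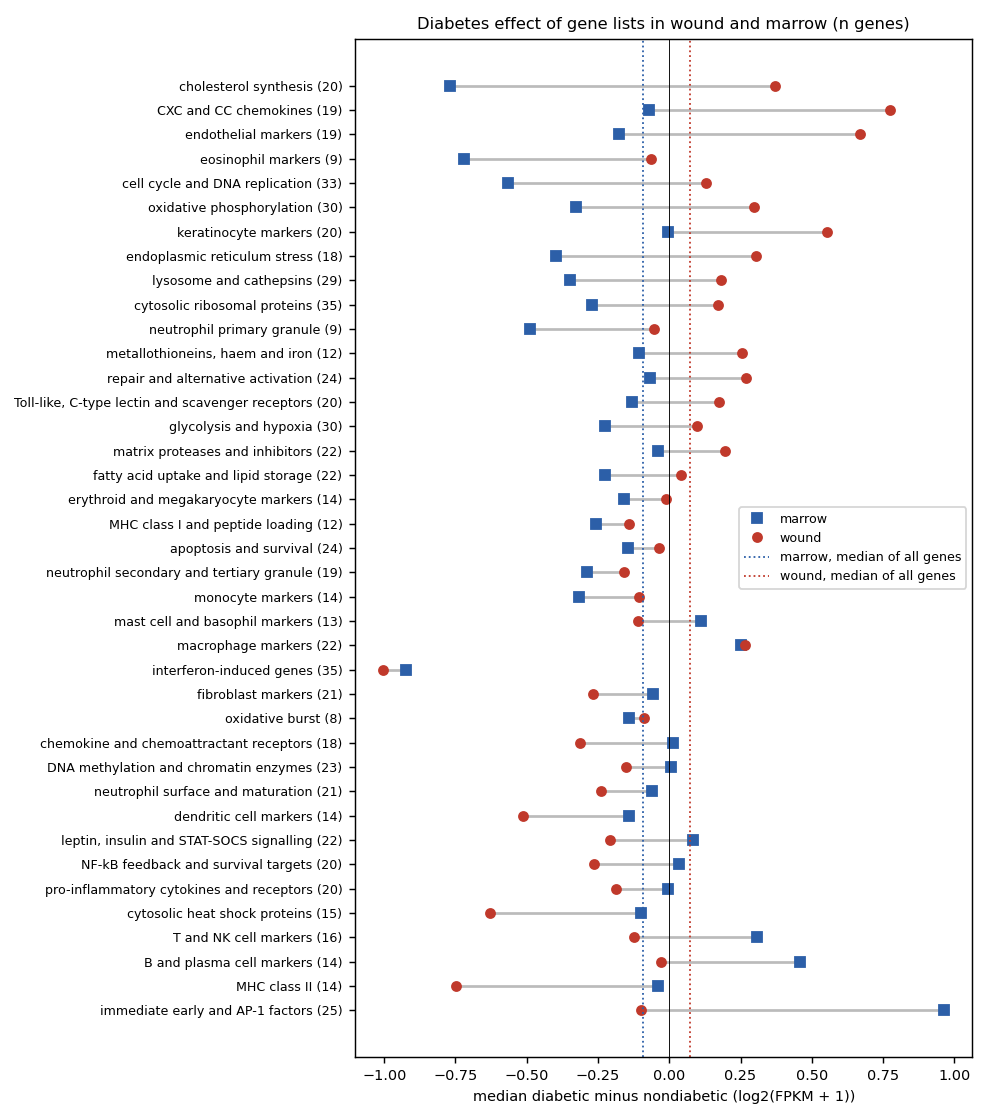
Median diabetes effect in marrow and in wounds (horizontal axis, log2, diabetic minus nondiabetic) for each gene list (rows), with vertical lines for the medians of all 13065 genes (0.07 in wound, -0.09 in marrow). The pairs of points lie farthest apart for cholesterol synthesis, with marrow below wound, and for immediate early factors, with marrow above wound.

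Immediate early genes, many of which encode AP-1 and zinc finger factors, are switched on within minutes of a stimulus. Of 25 tested genes (26 listed), 16 rose and 1 fell in diabetic marrow, while 7 rose and 10 fell in diabetic wounds. The tissue difference was lower in 18 and higher in 2, with a median of -1.06 (-1.32 after median-ratio scaling). Besides Fosb and Egr1, Dusp2, a phosphatase that stops MAP kinases, was at 1.28 and 1.37 FPKM in nondiabetic marrow, 6.501 and 6.33 in diabetic marrow, 75.3 and 74.1 in nondiabetic wounds and 59.5 and 59.8 in diabetic wounds. It rose in diabetic marrow and fell in diabetic wounds, with a tissue difference of -1.99 ± 0.048 (SE, adjusted p = 2.21e-05). Nr4a1, an orphan nuclear receptor of the same early response listed with monocyte markers, was at 5.93 and 5.003 FPKM in nondiabetic marrow, 18.6 and 19.5 in diabetic marrow, 359 and 361 in nondiabetic wounds and 286 and 279.6 in diabetic wounds, with a tissue difference of -1.98 ± 0.10 (SE, adjusted p = 6.61e-05). In these genes the marrow levels lay below the wound levels in both genotypes. The cAMP response element TGACGTCA was in 2 of 21 promoter windows found for the list and in 1.88% of all windows.

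NF-kB feedback genes and cytokines leaned the same way with less uniformity. Of 20 feedback and survival targets, 10 were lower and 3 higher (15 and 2 after median-ratio scaling; median -0.36, -0.52 after median-ratio scaling). Nfkbiz, an inducible co-factor of NF-kB, was at 17.3 and 18.1 FPKM in nondiabetic marrow, 45.2 and 44.6 in diabetic marrow, 439 and 463 in nondiabetic wounds and 320.3 and 310.5 in diabetic wounds. It rose in diabetic marrow and fell in diabetic wounds, a difference of -1.81 ± 0.059 (SE, adjusted p = 2.50e-05). Nfkbia, which encodes the inhibitor IkB-alpha, had effects of -0.62 in wound and 0.66 in marrow. The list of pro-inflammatory cytokines and receptors also holds the anti-inflammatory genes Il10 and Il1rn, the enzymes Nos2, Ptgs2 and Ptges, and Nlrp3. Of its 20 tested genes, 10 were lower and 6 higher (12 and 5 after median-ratio scaling). Tnf was at 3.75 and 3.44 FPKM in nondiabetic marrow, 15.1 and 14.8 in diabetic marrow, 559 and 574 in nondiabetic wounds and 785 and 786 in diabetic wounds. It rose in both tissues and more in marrow on the log2 scale, with a tissue difference of -1.33 ± 0.057 (SE, adjusted p = 4.84e-05). Il1b was at 111 and 122 FPKM in nondiabetic marrow, 114 and 109 in diabetic marrow, 3119 and 3419 in nondiabetic wounds and 1732 and 1703 in diabetic wounds, a fall in diabetic wounds that marrow did not show (marrow effect -0.069, adjusted p = 0.488), with a tissue difference of -0.86 ± 0.10 (SE, adjusted p = 9.92e-04). Osm, oncostatin M, rose in marrow, with a tissue difference of -1.30 (adjusted p = 3.82e-05), and Csf3, the neutrophil growth factor G-CSF, rose in wounds, with a tissue difference of 1.35 (adjusted p = 3.91e-05).

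Chemokines leaned towards diabetic wounds. Of 19 tested genes (25 listed), 12 rose and 4 fell in diabetic wounds, and the tissue difference was higher in 14 and lower in 2 (median 0.88, 0.80 after median-ratio scaling). Cxcl5, a neutrophil attractant, was at 0.174 and 0.145 FPKM in nondiabetic marrow, 0.0449 and 0.0131 in diabetic marrow, 15.5 and 15.4 in nondiabetic wounds and 63.4 and 62.9 in diabetic wounds, with a tissue difference of 2.14 ± 0.059 (SE, adjusted p = 2.21e-05). Ccl9 was at 14.97 and 16.03 FPKM in nondiabetic marrow, 9.62 and 9.65 in diabetic marrow, 95.4 and 98.8 in nondiabetic wounds and 167 and 167 in diabetic wounds, with a tissue difference of 1.41 ± 0.056 (SE, adjusted p = 4.17e-05), and Ccl24, an eosinophil attractant, had a tissue difference of 1.94. Cxcl1 and Cxcl2 were not tested, because diabetic wound pool 1 is listed at 0 with a failed estimate for both. Chemokine receptors leaned the other way, with 11 of 18 lower and 5 higher (12 and 2 after median-ratio scaling). Cxcr2, the neutrophil receptor of these ligands, was at 194 and 219.7 FPKM in nondiabetic marrow, 202 and 209 in diabetic marrow, 30.7 and 33.3 in nondiabetic wounds and 19.5 and 23.2 in diabetic wounds. Its difference of -0.56 (adjusted p = 0.0149) became 0.047 on the locus of the annotated strand.

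The list of cytosolic heat shock genes, which holds Hspa1b, also leaned lower. Of 15 tested genes (16 listed), 11 fell in diabetic wounds, and the tissue difference was lower in 9 and higher in 4 (median -0.41, -0.66 after median-ratio scaling). Dnajb1, an HSP40 co-chaperone, was at 9.33 and 10.3 FPKM in nondiabetic marrow, 20.1 and 21.5 in diabetic marrow, 46.8 and 49.3 in nondiabetic wounds and 31.1 and 30.3 in diabetic wounds, with a tissue difference of -1.64 ± 0.081 (SE, adjusted p = 6.61e-05). Hsph1, a large HSP110 chaperone, was at 2.33 and 2.301 FPKM in nondiabetic marrow, 1.92 and 2.28 in diabetic marrow, 95.8 and 99.3 in nondiabetic wounds and 28.1 and 28.1 in diabetic wounds. It fell in diabetic wounds and did not pass in marrow, a difference of -1.66 ± 0.083 (SE, adjusted p = 6.99e-05).

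Metallothioneins are small proteins that bind zinc and copper and are induced by metals and glucocorticoids. Mt1 (chr8:96702951-96704423, mm9) was at 9.89 and 9.09 FPKM in nondiabetic marrow, 5.93 and 5.36 in diabetic marrow, 163 and 178 in nondiabetic wounds and 759 and 738 in diabetic wounds. Diabetic wounds were several times above nondiabetic wounds and marrow was low in all pools, lowest in diabetic ones. It had effects of 2.13 in wound and -0.66 in marrow, with a difference of 2.79 ± 0.094 (SE, adjusted p = 2.61e-05). Mt2 was at 1.21 and 1.18 FPKM in nondiabetic marrow, 1.24 and 0.752 in diabetic marrow, 199 and 188 in nondiabetic wounds and 997 and 972 in diabetic wounds, with a tissue difference of 2.49 ± 0.15 (SE, adjusted p = 1.27e-04), and its marrow effect of -0.15 did not pass (adjusted p = 0.322). Because these neighbours moved together in wounds, their RefSeq promoter windows are shown (Mt1 chr8:94178839-94179138, Mt2 chr8:94172368-94172667, both plus strand, GRCm38.p6), 5′ to 3′. Capitals mark each match on either strand to TGCNCNC, a looser pattern than the core of the metal response element, so a match need not be such an element.
Mt1: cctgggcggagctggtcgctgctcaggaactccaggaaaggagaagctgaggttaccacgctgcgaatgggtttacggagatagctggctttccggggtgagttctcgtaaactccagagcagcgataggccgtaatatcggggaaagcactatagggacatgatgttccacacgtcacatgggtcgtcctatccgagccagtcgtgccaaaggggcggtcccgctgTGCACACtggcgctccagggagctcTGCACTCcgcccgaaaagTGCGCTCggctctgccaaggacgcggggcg
Mt2: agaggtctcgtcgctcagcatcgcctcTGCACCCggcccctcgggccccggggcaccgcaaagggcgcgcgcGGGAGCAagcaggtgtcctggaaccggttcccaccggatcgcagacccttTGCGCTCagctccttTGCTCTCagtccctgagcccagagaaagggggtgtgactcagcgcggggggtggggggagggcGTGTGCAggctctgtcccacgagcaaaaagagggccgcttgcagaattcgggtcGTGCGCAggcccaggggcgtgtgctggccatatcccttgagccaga
Mt1 had 3 matches to this looser pattern and Mt2 had 6. At least 1 match was in 50.4% of the 27025 windows, at least 3 in 6.95% and at least 6 in 0.207%. In the list of metallothioneins, haem and iron, of 12 tested genes (15 listed), 7 were higher and 3 lower (6 and 4 after median-ratio scaling), and 6 of the 11 windows found held a match. Hmox1, haem oxygenase, rose in both tissues and more in wounds, at 25.7 and 25.7 FPKM in nondiabetic marrow, 32.7 and 33.3 in diabetic marrow, 188 and 199 in nondiabetic wounds and 624 and 617 in diabetic wounds, with a tissue difference of 1.33 ± 0.052 (SE, adjusted p = 3.82e-05).

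Genes of the MHC class II list were relatively lower in diabetic wounds. Beside class II genes, which present antigen, this list holds the cathepsin Ctss and the costimulatory ligands Cd80 and Cd86. Of 14 tested, 10 fell in diabetic wounds, 4 rose and 6 fell in diabetic marrow, and the tissue difference was lower in 10 and higher in 1 (median -0.78, -1.02 after median-ratio scaling). Ciita, the master regulator of the class, was at 0.573 and 0.636 FPKM in nondiabetic marrow, 2.62 and 2.55 in diabetic marrow, 2.09 and 2.68 in nondiabetic wounds and 0.756 and 0.741 in diabetic wounds. It rose in diabetic marrow and fell in diabetic wounds, with a tissue difference of -2.11 ± 0.13 (SE, adjusted p = 1.13e-04). The locus of H2-DMb1 and H2-DMb2, which load peptide, was at 17.5 and 19.5 FPKM in nondiabetic marrow, 48.2 and 48.6 in diabetic marrow, 32.3 and 32.5 in nondiabetic wounds and 27.5 and 25.6 in diabetic wounds, with a tissue difference of -1.62 ± 0.083 (SE, adjusted p = 7.37e-05). The H2-Aa row is a 649 bp stretch without an exon that was at most 1.79 FPKM, and says nothing of the gene, though it counts among the 14. Dendritic cell markers also leaned lower, with 7 of 14 lower, and Flt3, a receptor of their precursors, had a tissue difference of -1.11 (adjusted p = 3.78e-04). The part of such cells in the class II result was not tested.

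Interferon-induced genes fell in both tissues. Of 35 tested genes (36 listed), 32 fell in diabetic wounds and 33 in diabetic marrow, with median effects of -1.004 and -0.92. Tissue differences were called in both directions, 10 higher and 14 lower (7 and 21 after median-ratio scaling), at a median of -0.075 (-0.31 after median-ratio scaling). Mx1, an antiviral GTPase, was at 5.96 and 6.69 FPKM in nondiabetic marrow, 3.37 and 3.38 in diabetic marrow, 27.7 and 27.8 in nondiabetic wounds and 6.06 and 5.93 in diabetic wounds. It fell in both tissues and more in wounds, with a tissue difference of -1.30 ± 0.076 (SE, adjusted p = 1.09e-04). Ifit2 had effects of -1.54 in wound and -0.59 in marrow, while the Gbp3 and Gbp7 locus passed the test in marrow and not in wounds.

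Granule genes of neutrophils are transcribed in stages in the marrow and are nearly silent in mature cells. All 9 tested primary granule genes of 12 listed fell in diabetic marrow, 7 with a higher and 0 with a lower tissue difference (median 0.47). After median-ratio scaling 7 fell in marrow, 4 had a higher and 2 a lower difference, and the median was 0.22. Ctsg, cathepsin G, was at 70.7 and 68.9 FPKM in nondiabetic marrow, 49.1 and 49.9 in diabetic marrow, 0.133 and 0.251 in nondiabetic wounds and 1.99 and 2.24 in diabetic wounds, with a tissue difference of 1.88 ± 0.089 (SE, adjusted p = 6.09e-05). Prtn3 (a 225 bp locus) had a tissue difference of 1.57. Secondary and tertiary granule genes split into 6 higher and 7 lower (4 and 9 after median-ratio scaling), and their median of 0.10 became -0.16 after median-ratio scaling. The locus of Padi3 and Padi4, of which Padi4 citrullinates histones in neutrophils, was at 501 and 501 FPKM in nondiabetic marrow, 374 and 398 in diabetic marrow, 19.1 and 19.3 in nondiabetic wounds and 2.71 and 3.68 in diabetic wounds, with a tissue difference of -1.90 ± 0.15 (SE, adjusted p = 2.28e-04). Cd177, a neutrophil surface protein, had a tissue difference of 1.07, and Itgb2l had a tissue difference of 0.69, which became -0.27 with a pseudocount of 0.1 and 0.032 with summed loci. The S100a9 estimate failed on its main locus, and the row tested is a stray locus near 0.

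Surface and maturation genes of neutrophils leaned lower, with 12 of 21 lower and 4 higher (14 and 0 after median-ratio scaling; median -0.30, -0.55 after median-ratio scaling). Mxd1, a repressor that rises as neutrophils mature, was at 322 and 329.8 FPKM in nondiabetic marrow, 297 and 306 in diabetic marrow, 620.0 and 638 in nondiabetic wounds and 243 and 241 in diabetic wounds. It fell in diabetic wounds and did not pass in marrow, with a tissue difference of -1.26 ± 0.057 (SE, adjusted p = 5.50e-05). Stfa3, a stefin protease inhibitor of neutrophils, was at 31.1 and 29.2 FPKM in nondiabetic marrow, 199 and 208 in diabetic marrow, 24.9 and 25.2 in nondiabetic wounds and 65.9 and 69.2 in diabetic wounds. It rose in both tissues and more in marrow, with a tissue difference of -1.32 ± 0.064 (SE, adjusted p = 6.43e-05). Genes of the oxidative burst gave 5 lower and 2 higher of 8 tested. Ncf1, a subunit of the NADPH oxidase, was at 229 and 228 FPKM in nondiabetic marrow, 213 and 226 in diabetic marrow, 79.3 and 82.7 in nondiabetic wounds and 31.2 and 30.5 in diabetic wounds, with a tissue difference of -1.30 ± 0.06 (SE, adjusted p = 5.59e-05), and Rac2, its small GTPase, had effects of -0.78 in wound and -0.23 in marrow.

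**Figure D5:**
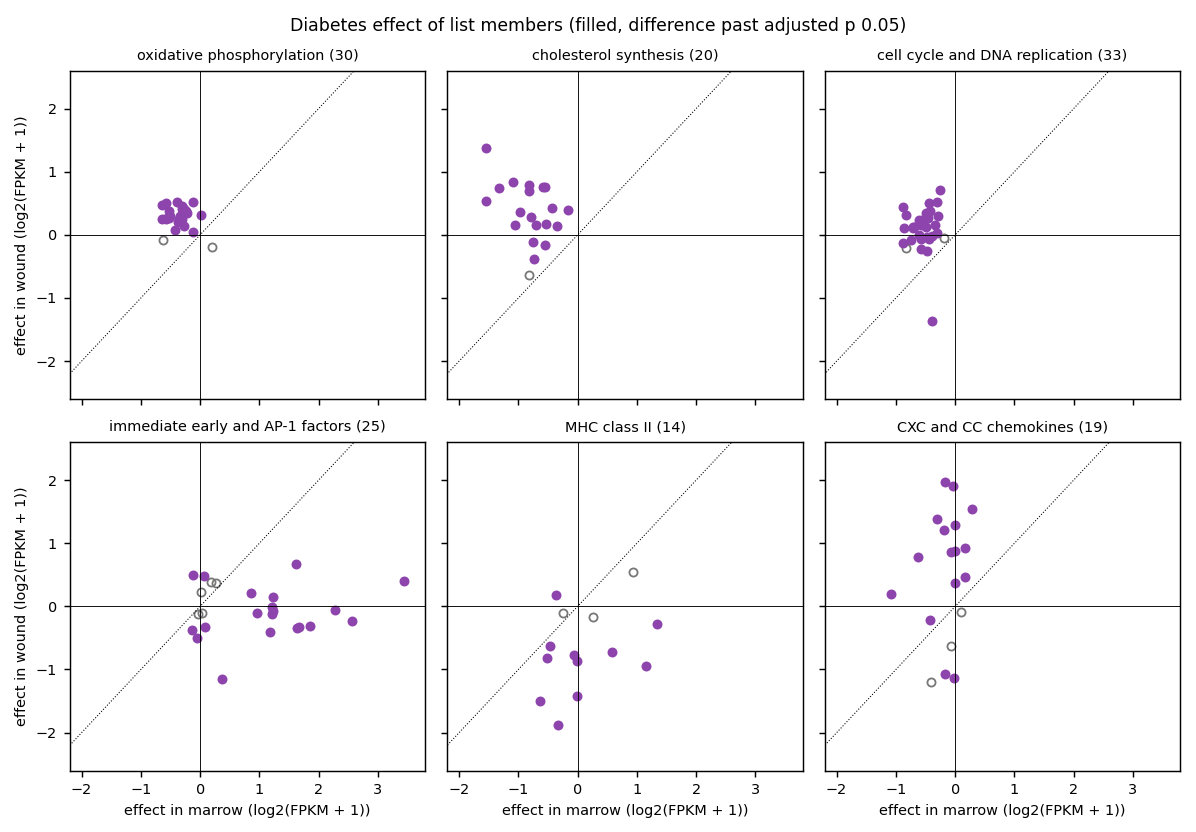
Diabetes effect in marrow (horizontal axis, log2) against that in wounds (vertical axis, log2) for every tested member of 6 gene lists, 1 panel each, filled where the tissue difference passed the test and with a dotted line where both effects are equal. Points of oxidative phosphorylation and cholesterol synthesis gather to the left of and above the line, those of immediate early factors mostly to the right of it, and those of MHC class II mostly below it.

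Markers of the other myeloid cells did not share a direction. Of 14 monocyte markers 6 were higher and 5 lower (5 and 6 after median-ratio scaling), with a median of 0.043 that became -0.16 after median-ratio scaling. F13a1, coagulation factor XIII of monocytes, was at 50.1 and 52.8 FPKM in nondiabetic marrow, 41.3 and 42.4 in diabetic marrow, 34.6 and 34.8 in nondiabetic wounds and 98.2 and 96.5 in diabetic wounds, with a tissue difference of 1.75 ± 0.051 (SE, adjusted p = 2.21e-05). Of 22 macrophage markers 7 were higher and 8 lower (6 and 10 after median-ratio scaling). Cd5l, a secreted macrophage protein, had a tissue difference of -1.84 (adjusted p = 6.35e-05) and rose in marrow, while the scavenger receptor Marco had a tissue difference of 1.98 (adjusted p = 4.44e-05) at levels of at most 2.13 FPKM. Mrc1, the mannose receptor, rose in both tissues and more in marrow, at 1.72 and 1.73 FPKM in nondiabetic marrow, 5.78 and 5.91 in diabetic marrow, 22.2 and 21.6 in nondiabetic wounds and 34.8 and 34.1 in diabetic wounds.

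Of 9 eosinophil genes tested, 6 fell and 1 rose in diabetic marrow, where 32.8% of all genes tested fell and 13.7% rose. After median-ratio scaling 5 fell and 2 rose in marrow. The tissue difference was higher in 5 and lower in 3, with the same counts after median-ratio scaling. Epx, eosinophil peroxidase, was at 57.5 and 56.8 FPKM in nondiabetic marrow, 26.5 and 27.4 in diabetic marrow, 0.0286 and 0.0386 in nondiabetic wounds and 0.0357 and 0.0116 in diabetic wounds. Mast cell and basophil markers divided, with 6 higher and 6 lower. Cma1 and Tpsab1, proteases of mast cells, rose in diabetic wounds (differences 1.12 and 1.58), while Mcpt8, a basophil protease, rose in diabetic marrow, at 31.6 and 34.2 FPKM in nondiabetic marrow, 84.2 and 84.1 in diabetic marrow, 0.746 and 0.774 in nondiabetic wounds and 0.305 and 0.2100 in diabetic wounds. B cell and T or NK cell lists leaned lower, with 8 of 14 and 9 of 16. Cd22 of B cells rose in diabetic marrow (tissue difference -1.51) and Gzmb, granzyme B, fell in diabetic wounds (tissue difference -1.55).

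Markers of skin and vessels leaned towards diabetic wounds. Of 20 keratinocyte markers, 16 rose in diabetic wounds and 14 had a higher tissue difference (median 0.57, 0.49 after median-ratio scaling). Of 19 endothelial markers, 14 rose in diabetic wounds, 9 fell in diabetic marrow and 16 had a higher tissue difference (median 0.80, 0.61 after median-ratio scaling). Plvap, a protein of vessel fenestrae, was at 0.639 and 0.479 FPKM in nondiabetic marrow, 0.00908 and 0.0583 in diabetic marrow, 8.42 and 8.38 in nondiabetic wounds and 19.7 and 19.3 in diabetic wounds, with a tissue difference of 1.72 ± 0.091 (SE, adjusted p = 7.97e-05). The keratin locus of Krt5, Krt6a and Krt79 was at 0.228 and 0.255 FPKM in nondiabetic marrow, 0.1805 and 0.191 in diabetic marrow, 115 and 119.6 in nondiabetic wounds and 234 and 223 in diabetic wounds, with a tissue difference of 1.02 ± 0.056 (SE, adjusted p = 8.70e-05). Fibroblast markers gave 9 lower and 4 higher of 21 (11 and 3 after median-ratio scaling). Col5a2, a chain of type V collagen, had a tissue difference of -0.73, which lost the call with a pseudocount of 0.1, at -0.34 (adjusted p = 0.084).

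Genes of repair were called in both directions. Of 24 repair and alternative activation genes, 14 were higher and 7 lower (12 and 8 after median-ratio scaling; median 0.42, 0.30 after median-ratio scaling). Of the 24, 14 lay above the median of all genes. Arg1, arginase 1, was at 0.568 and 0.338 FPKM in nondiabetic marrow, 0.293 and 0.0919 in diabetic marrow, 143 and 150.1 in nondiabetic wounds and 404 and 399.9 in diabetic wounds. It rose in diabetic wounds and was under 1 FPKM in marrow, with a tissue difference of 1.74 ± 0.15 (SE, adjusted p = 3.02e-04). Ereg and Areg, ligands of the epidermal growth factor receptor, had tissue differences of 2.27 (adjusted p = 2.50e-05) and 1.22 (adjusted p = 9.31e-05). Spp1, osteopontin, was at 8.08 and 7.05 FPKM in nondiabetic marrow, 4.64 and 2.701 in diabetic marrow, 1421 and 1494 in nondiabetic wounds and 2344 and 2361 in diabetic wounds, with a tissue difference of 1.59 ± 0.26 (SE, adjusted p = 0.00333). Of 22 matrix proteases and inhibitors, 11 were higher and 6 lower (10 and 9 after median-ratio scaling). Mmp13, a collagenase, was at 0.485 and 0.484 FPKM in nondiabetic marrow, 0.1996 and 0.0838 in diabetic marrow, 27.4 and 28.7 in nondiabetic wounds and 64.9 and 63.5 in diabetic wounds, with a tissue difference of 1.55 ± 0.084 (SE, adjusted p = 8.38e-05).

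In the list of leptin, insulin and STAT signalling, 14 of 22 fell in diabetic wounds, 8 rose and 6 fell in diabetic marrow, and 14 had a lower difference (median -0.36, -0.59 after median-ratio scaling). The effect turned downward in wounds in 7. Socs3, a feedback inhibitor of cytokine and leptin receptors, was at 13.1 and 11.9 FPKM in nondiabetic marrow, 20.2 and 21.01 in diabetic marrow, 211 and 208 in nondiabetic wounds and 181 and 177 in diabetic wounds, with a tissue difference of -0.90 ± 0.068 (SE, adjusted p = 2.16e-04). Stat5a had effects of -0.85 in wound and -0.15 in marrow, and the Stat3 row, a locus of 263 bp, had a tissue difference of -0.65.

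Of the remaining lists, chromatin enzymes gave 7 higher and 10 lower of 23 (7 and 12 after median-ratio scaling). Dnmt1, the maintenance DNA methyltransferase, was at 22.8 and 22.4 FPKM in nondiabetic marrow, 17.9 and 18.2 in diabetic marrow, 5.14 and 5.57 in nondiabetic wounds and 8.65 and 8.67 in diabetic wounds, with a tissue difference of 0.91 ± 0.06 (SE, adjusted p = 1.44e-04). Apoptosis genes gave 10 higher and 8 lower (6 and 9 after median-ratio scaling) at a median of 0.16, and -0.093 after median-ratio scaling. The death receptor Fas fell in diabetic wounds (tissue difference -0.89) and the BH3 protein Pmaip1 rose in diabetic marrow (tissue difference -1.22). Pattern recognition receptors gave 13 higher and 3 lower of 20 (9 and 5 after median-ratio scaling), with Ly96, the TLR4 partner MD-2, at 1.12. For MHC class I and peptide loading the counts were 5 and 3 of 12 (2 and 4 after median-ratio scaling), with a median of 0.16 that became -0.10 after median-ratio scaling. Hoxa3, a homeobox gene, was between 0.216 and 2.303 FPKM and did not pass (tissue difference -0.46, adjusted p = 0.473).

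The same values can be read as the distance between wound and marrow in each genotype. Of the genes with a called tissue difference, 1064 were higher in wounds in both genotypes, by a log2 distance of 1 or more. This distance was wider in diabetic mice in 641 of them and narrower in 423, while calls after median-ratio scaling among genes of the same distance gave 492 and 589. In 1473 genes higher in marrow it was wider in 628 and narrower in 845, against 1099 and 428. The scaling thus decided which direction was the more frequent in both sets. In 14 genes the tissue with the higher level was not the same in the 2 genotypes, with a distance of at least 1 each way, and Malat1, Ciita and Ubn2 were among them. This count is on the deposited values and was not repeated under another scaling. Ciita and Ubn2 lay near the limit, with wound minus marrow at -1.04 and -1.02 in diabetic mice.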

How the data were processed

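RNA of 8 libraries of Gr-1+ cells was sequenced, 1 lane for each, from 2 pools in each of 4 groups. The authors deposited FPKM (fragments scaled by transcript length and library size) for 39330 assembled loci with a status for each estimate. They were made with TopHat and Cufflinks on mm9 per the submitters' processing notes. Versions and settings, among them how library size was set, are not given in the sources used here. The status is a deposited label other than a measurement. No counts were at hand, so depth and counting error are unknown.

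Of 15578 gene names, 455 lacked a locus with status OK in all 8 libraries and 384 more lacked such a locus of 200 bp or longer, which left 14739. Genes with at least 1 FPKM in at least 2 libraries were tested, which removed 1674 and left 13065. Where a name had several loci, as 4627 did, the one of highest mean FPKM was used. Of the tested loci, 12662 lay over an exon of the named gene in GENCODE M1 on mm9, 4277 also lay over an exon of another gene, and 536 rows carried joint names. Strand was inferred from the order of the loci, and reads of overlapping genes cannot be told apart.

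Values were analysed as log2(FPKM + 1), a scale that understates changes of low genes. Group means were fitted to all 8 libraries in limma 3.58.1 under R 4.3.3 (trend, 4 residual degrees of freedom). Tests were two-sided, with Benjamini-Hochberg adjustment over the 13065 genes and a threshold of 0.05. On simulated data with the spread of these libraries, the fit recovered 71 of 100 genes given a 2-fold tissue difference and 89 of 100 given a 4-fold one, and it called 6 of 12865 unmoved genes. The simulation moved no other genes and added no shift of scale to a library. Its rates therefore do not carry over to the measured data, where 58.5% of genes passed and the split moved with scaling.

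Named genes were taken by rule among called genes with at least 5 FPKM in a group of each tissue, leaving out unnamed gene models, small RNA and receptor segments. The rule took the 8 largest turns of each direction by the smaller of the effects, the 5 largest differences of each direction called in 1 tissue, and the 3 largest of each sign called in both. It also took the 3 largest differences of genes confined to 1 tissue, up to 3 members of each of 39 lists by p, and 12 fixed genes. Some of the genes so taken are not reported here, and the counts of named genes over alternatives leave them out. The members and lists were chosen with earlier results of these data known.

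The alternatives comprised a pseudocount of 0.1 or 5, the FPKM filter dropped or made stricter, quantile and median-ratio scaling, fits without trend or robust, blocks for pool number, summed loci, short loci kept, a minimum difference of 1 and each library left out. Another pair of locus choices (the annotated strand preferred, and exons of the named gene required) were added after seeing the data. Promoter windows came from RefSeq (GRCm38.p6), the first entry for each symbol. Figures were drawn with matplotlib 3.10.9.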

Additional observations from a re-analysis of the deposited data

Results flagged for a closer look

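The difference between the diabetes effects of wound and marrow was tested directly for every gene, and 7641 genes passed. Among these, 16 named genes drew attention because each tissue's own effect passed with the opposite sign. Up in diabetic wounds and down in diabetic marrow, with tissue differences on the log2 scale, were Ppbp (5.12), Adcy2 (2.70), Tcfec (2.20), Pdlim1 (2.32), Plscr3 (1.87), Idh1 (1.95), Fdps (1.93) and Lsm5 (1.69). Down in wounds and up in marrow were RP23-349B4.25 (-3.24), RP23-38P5.8 (-4.15), Hspa1b (-3.02), Malat1 (-2.85), Lpl (-2.95), Kcnh6 (-2.49), Sfpq (-1.86) and Adrbk2 (-2.13). The rows named Adcy2 and Kcnh6 cover no annotated exon, and Hspa1b and RP23-349B4.25 lie over near-identical copies whose reads may be shared.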

How the results depend on the processing

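Of 161 named genes recomputed under 24 settings, 149 kept direction and side of the threshold in all, 9 lost the call in at least 1, 1 gained one and 3 reversed. The reversals were Cxcr2 (0.047) on the annotated strand, Itgb2l (-0.27) with a pseudocount of 0.1, and Ly6g (-0.066 under quantile normalization, -0.17 under median-ratio scaling). The cause was not tested.

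Counts moved with scaling and with a minimum difference. Quantile normalization gave 2687 genes down in marrow and 938 and 911 turned up and down in wound. Median-ratio scaling gave 3341 higher and 3810 lower tissue differences, 2816 up and 2559 down in marrow, and 753 and 1145 turned. Requiring a difference of at least 1 gave 646 higher and 599 lower, 300 up and 367 down in wound, 306 up and 233 down in marrow, and 9 and 15 turned. Leaving out 1 library gave 4291 to 4807 higher and 2142 to 2401 lower differences, 3102 to 4208 up and 2229 to 2820 down in wound, 1280 to 1694 up and 2911 to 4090 down in marrow, and 1129 to 1485 and 378 to 500 turned, with the lone pool left in a group assumed to vary like the others.

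Pools of the same number did not deviate together (correlations across genes of -0.33 to 0.23 between groups). With 1 contrast between pools in each group, this cannot show whether a marrow pool and a wound pool share mice. The numbers were not taken as pairs because the labels do not tie them, and blocked fits were run as alternatives. A replicate block for pool number gave 4979 higher and 2454 lower differences, and one for genotype and pool number 4690 and 2316. Under the latter the difference of Hoxa3, -0.46, passed (adjusted p = 0.0385), the 1 gained call. Gtpbp10 lost its call under both blocks. Depth is unknown, so what it limits could not be given.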

Other observations

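In 14 genes with a called difference the tissue with the higher level changed between genotypes, by at least 1 on the log2 scale each way with the deposited values. This set was not recomputed under another scaling. Some of these genes lie outside the named genes and were chosen after their values were seen. Tmem159 was at 14.9 and 13.9 FPKM in nondiabetic marrow, 1.12 and 1.10 in diabetic marrow, 4.37 and 3.95 in nondiabetic wounds and 3.28 and 3.42 in diabetic wounds. Marrow was thus above wounds in nondiabetic mice and below them in diabetic mice. Sqle, squalene epoxidase of cholesterol synthesis, was at 4.76 and 5.06, 1.43 and 1.29, 1.99 and 1.92, and 3.79 and 4.08 FPKM in the same order. The unnamed gene model Gm14306 had the largest difference of all tested genes, -17.19 on the log2 scale. It was listed at 0 in both nondiabetic marrow pools and both diabetic wound pools, at 544 and 807 FPKM in diabetic marrow, and at 619 and 80.5 in nondiabetic wounds, where the pools differ widely.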
